A study of Mus musculus with 2 samples.

Results

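The heat shock chaperones are a family of protein-folding genes, described here through 10 members chosen by name. They are set out as 5 inducible members (Hspa1a, Hspa1b, Hspb1, Hsph1 and Dnajb1) and 5 constitutive ones (Hspa8, Hspa5, Hspd1, Hspe1 and Hsf1). The family was selected with the difference between the arrays known, in particular that of Hspa1a, so its values are a description and no test was made on them. A probe belonged to a member if its gene name, or the gene of its transcript accession, was that member. By that rule 9 members had probes, 14 in all, among 34786 genes and 55681 probes that were not controls. Hspa1b had no probe of its own, because the array's single Hspa1a probe is listed for the transcripts of both genes.

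Heat shock proteins bind unfolded protein chains, keep them from aggregating and help them fold. When misfolded proteins build up, heat shock factor 1 (Hsf1) forms trimers, binds heat shock elements in promoters and switches on the inducible chaperones, while the constitutive ones serve folding in unstressed cells of the cytosol, endoplasmic reticulum or mitochondria. Haematopoietic stem cells keep protein synthesis low, and Hsf1 is known to act in their protein homeostasis.

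The RNA came from bone marrow LSK cells, which lack lineage markers and carry Sca-1 and c-Kit, a sort gate for blood stem cells and the multipotent progenitors below them. The cells were from C57BL/6 mice and carried a myelodysplastic syndrome (MDS, a clonal disorder of ineffective blood formation) of the genotype Tet2KD/KD; Ezh2Δ/Δ, and both groups shared that genotype and disease. They had been passed into secondary recipients and were taken 10 weeks after the transplant. One group had decitabine (DAC) and the other phosphate-buffered saline (PBS), labelled 7w DAC and 7w PBS in the source names. Whether the 7 weeks count from the first or the last dose is not said there. Decitabine is a nucleoside analogue that enters DNA and traps its methyltransferases. Each group had 1 array, so no difference could be set against the spread between animals or sorts, and no cells without the mutations were analysed here. How Ezh2 was deleted, how many mice were pooled and how long each sort took are not stated in the labels.

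Because the largest difference rests on 1 probe, its sequence is shown beside that of a paralog on the array, Hspa1l, a gene next to Hspa1a whose protein is mostly found in testis. Both are the deposited probe sequences, written 5′ to 3′, with capitals for the bases that the 2 probes share when aligned.
Hspa1a: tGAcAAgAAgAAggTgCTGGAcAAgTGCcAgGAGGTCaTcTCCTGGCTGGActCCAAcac
Hspa1l: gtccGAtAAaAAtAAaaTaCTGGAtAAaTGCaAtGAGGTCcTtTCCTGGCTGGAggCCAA
Of the 57 aligned bases 42 were identical and 15 differed. The Hspa1a probe lies on chromosome 17 from 35107117 to 35107176 on the minus strand (mm9), starting at base 1925 of its transcript. Whether a probe lies in coding sequence or in an untranslated region was not annotated in the sources used here.

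Promoters are shown because heat shock factors act through elements in them. Each sequence is the 250 bases before a gene's start, on the gene's strand, from RefSeq on GRCm38.p6, a later build than that of the probe positions. In the first 4, capitals mark matches to a heat shock element of 2 inverted units, GAANNTTC or TTCNNGAA, each of which reads the same on both strands.
Hspa1a (chr17:34972157-34972406): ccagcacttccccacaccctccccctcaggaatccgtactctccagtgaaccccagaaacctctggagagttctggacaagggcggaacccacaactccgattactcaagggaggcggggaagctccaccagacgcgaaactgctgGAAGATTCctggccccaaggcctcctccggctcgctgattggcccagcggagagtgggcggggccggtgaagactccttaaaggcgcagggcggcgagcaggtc
Hspa1b (chr17:34959239-34959488): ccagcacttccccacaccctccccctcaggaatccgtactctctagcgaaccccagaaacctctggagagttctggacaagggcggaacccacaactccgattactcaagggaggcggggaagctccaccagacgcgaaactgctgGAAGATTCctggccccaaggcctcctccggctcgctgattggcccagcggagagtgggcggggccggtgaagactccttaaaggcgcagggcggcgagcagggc
Hspb1 (chr5:135887669-135887918): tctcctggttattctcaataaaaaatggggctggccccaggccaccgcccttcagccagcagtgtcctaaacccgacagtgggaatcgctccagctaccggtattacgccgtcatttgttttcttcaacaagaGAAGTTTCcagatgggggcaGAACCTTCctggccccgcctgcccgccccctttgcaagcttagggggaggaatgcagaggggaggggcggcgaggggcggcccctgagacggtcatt
Hspe1 (chr1:55087898-55088147): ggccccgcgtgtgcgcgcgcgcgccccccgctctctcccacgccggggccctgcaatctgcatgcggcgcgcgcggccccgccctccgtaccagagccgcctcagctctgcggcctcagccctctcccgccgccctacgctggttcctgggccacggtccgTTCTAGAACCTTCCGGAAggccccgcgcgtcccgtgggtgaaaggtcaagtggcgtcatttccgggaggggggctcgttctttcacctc
Hspa5 (chr2:34771840-34772089): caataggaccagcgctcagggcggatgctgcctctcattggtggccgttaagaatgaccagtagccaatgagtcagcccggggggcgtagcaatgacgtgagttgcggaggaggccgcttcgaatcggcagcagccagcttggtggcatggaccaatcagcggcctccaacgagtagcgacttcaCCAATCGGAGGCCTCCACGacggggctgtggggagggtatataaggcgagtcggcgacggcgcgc
In Hspa5 the capitals mark an endoplasmic reticulum stress element, CCAAT and CCACG held apart by a fixed spacer.

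The windows of Hspa1a and Hspa1b were identical at 247 of 250 bases, and the starts of the 2 genes lie 12918 bases apart on the same strand. Each holds 1 match, starting 104 bases before the start. Hspb1 holds 2, starting 117 and 97 bases before. Hspe1 holds 3 overlapping ones in a single run, starting 89 to 79 bases before, which also contain 2 matches to an element of 3 inverted units. Hspd1 and Hspe1 lie head to head, with starts 216 bases apart, so the same run stands 144 to 134 bases before an Hspd1 start, while the window of a second Hspd1 start holds 0. In Hsph1 the match lay 54 or 33 bases before its start, depending on which of 2 annotated starts was used, and neither window of Dnajb1 held one.

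Over all 32851 windows in the table, 12.8% held the 2-unit element and 0.466% the 3-unit one. Of the 8 members with a window, 6 held the former and 2 the latter in at least 1 of their windows, 11 in all. These member counts are per gene and the shares per window. The 2 members with the 3-unit element, Hspd1 and Hspe1, share the same run, and the Hspa1a and Hspa1b windows are nearly identical. The members are thus not independent, and no enrichment is read from these counts. Hspa5 held 0 matches to the heat shock element, 4 CCAAT boxes (counted on both strands, 1 of them within the stress element) and the 1 stress element, which 0.113% of all windows held. The count of CpG, the dinucleotide that DNA methyltransferases modify, differed between these promoters. Hspa1a had 14, Hspa1b 15, Hspb1 12 and Hspe1 32, against a median of 6 over all windows and quartiles of 2 and 16. Of these 4 windows that of Hspe1 alone lay above the upper quartile. The windows of Hspa5 (22), Dnajb1 (27 and 33) and Hspd1 (27 and 30) also lay above it. Of the 2 Hsph1 windows, 1 lay above it (18) and the other at it (16). A match describes the letters of a window and nothing more, and methylation was not measured in these samples.

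The inducible members split into a pair that was low on the DAC array and a pair whose probes all lay within 2-fold between the arrays. Hspa1a, the main stress-induced Hsp70, gave a background-subtracted spot intensity of 17.0 ± 5.06 with DAC and 726 ± 72.8 with PBS, where the error is the scanner software's for that spot. The DAC spot was positive and significant by the software's own call but not well above background. With each array scaled to its 75th percentile over probes well above background on both, the log2 signals were −5.58 and 0.23. Taken at face value the difference is −5.81 on the log2 scale. As a bound, Hspa1a was at least 42.5-fold lower with DAC (−5.41).

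Such a bound is used wherever a probe was well above background on 1 array only. It sets the bright array's signal against the dim array's own signal or, where that is higher, against the faintest signal that the dim array still called well above background. Because the probe reads both transcripts, Hspa1a and Hspa1b cannot be told apart here. In a bulk sample such as this, fewer cells of a type and less RNA per cell cannot be told apart either.

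Hspb1, which encodes the small heat shock protein Hsp27, was also dim on the DAC array. Its probe gave 74.4 ± 8.54 on the PBS array and, on the DAC array, 4.63 ± 4.64, a value the software substituted for a spot not above background. The scaled log2 signal was −3.05 with PBS and −7.46 with DAC, and the gene was at least 4.36-fold lower with DAC. The probe lies on chromosome 5 from 136365366 to 136365425. Its PBS signal was near the lower end of what the array measures, so this bound is much smaller than that of Hspa1a and says less about the size of the difference.

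Both dim spots were looked at on the array itself. The Hspa1a spot on the DAC array had a mean of 85.8 before subtraction against a background of 67.7, over 44 pixels, and on the PBS array 847 against 68.1 over 40. It was brighter than 305 of 308 negative control spots on the DAC array and than all 308 on the PBS array. The Hspb1 spot was brighter than 37 of 308 on the DAC array and 307 of 308 on the PBS array. Thus Hspa1a left a faint signal with DAC, while Hspb1 lay among the negative controls. The 13 measured spots around Hspa1a had a median log2 difference of 0.01, with a range of −1.48 to 2.06, and the 6 around Hspb1 a median of 0.19.

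**Figure D1:**
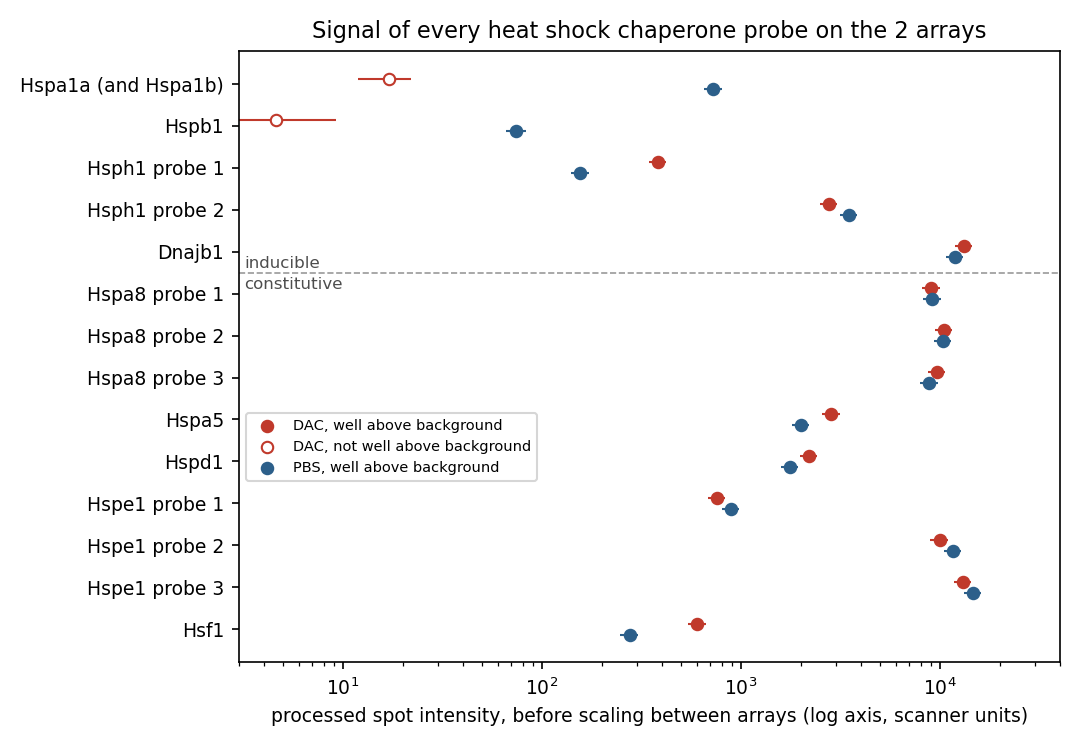
Background-subtracted spot intensity of each of the 14 member probes on the DAC array (red) and the PBS array (blue), on a log axis, before scaling between arrays. Bars are the scanner software's error of the spot and open symbols mark spots not well above background. Hspa1a and Hspb1 are the members whose DAC spots (17.0 and 4.63) fall far to the left of their PBS spots (726 and 74.4).

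Hsph1, an Hsp110 that exchanges nucleotide on Hsp70, gave opposite answers on its 2 probes. The brighter one, starting at base 3094 of the transcript (chromosome 5, 150419744 to 150419803), gave 2760 ± 276 with DAC and 3494 ± 349 with PBS, a log2 difference of −0.74 with an SD of 0.09. The dimmer one, 366 bases nearer the 5′ end, gave 383 ± 38.6 and 156 ± 16.2, a difference of 0.90 with an SD of 0.14. The SD is that of a log2 difference over probes printed 10 times on each array, at low (0.24), middle (0.14) or high (0.09) signal. It covers printing, hybridisation and scanning only as they vary between spots within an array. Differences between the 2 arrays in labelling, hybridisation or scanning are not covered, nor are animals, sorting, RNA extraction or amplification. The distance between the 2 probes of Hsph1 is thus many times the spot error, and no direction is given for this gene. Its brighter probe stands for it in the counts.

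Dnajb1, the Hsp40 partner that stimulates the Hsp70 ATPase, was bright on both arrays (probe on chromosome 8, 86135660 to 86135719). It gave 13222 ± 1322 with DAC and 11889 ± 1189 with PBS, higher with DAC before scaling (0.15) and lower after it (−0.24). Within this inducible set, then, Hspa1a and its partner Dnajb1 did not move by like amounts.

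The constitutive members all lay within 2-fold between the 2 arrays. Hspa8, the everyday cytosolic Hsp70, had 3 probes spread over its transcript on chromosome 9. Its brightest gave 10444 ± 1044 with DAC and 10330 ± 1033 with PBS, a scaled log2 difference of −0.38, and the other two gave −0.41 and −0.27. The 3 probes of Hspa8 thus had the same sign, unlike those of Hsph1, although before scaling the brightest was nearly level (0.02).

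The mitochondrial chaperonin is made of Hspd1 (Hsp60) and its lid Hspe1 (Hsp10), whose genes lie head to head. The same run of heat shock element matches stands before the Hspe1 start and an Hspd1 start. Hspd1 (probe on chromosome 1, 55134697 to 55134756) gave 2202 ± 220 with DAC and 1762 ± 176 with PBS, a difference of −0.07. The brightest of 3 Hspe1 probes gave 13028 ± 1303 and 14670 ± 1467, a difference of −0.57 (chromosome 1, 55148026 to 55148085), and the others gave −0.62 and −0.63. A pair of these Hspe1 probes overlaps, with 56 of 57 aligned bases identical, and so counts as 1 observation. The partners therefore differed by more than the spot error, although each was within 2-fold.

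Hspa5 (BiP), the Hsp70 of the endoplasmic reticulum and a target of the unfolded protein response, gave 2848 ± 285 with DAC and 2000.05 ± 200 with PBS (probe on chromosome 2, 34631913 to 34631972). After scaling its difference was 0.11, about the size of the spot SD of 0.09. Hsf1, the regulator itself (probe on chromosome 15, 76331320 to 76331379), gave 605 ± 60.7 with DAC and 276 ± 28.0 with PBS. That is 1.66-fold higher with DAC (0.73, SD 0.09), the highest value of any member by its brightest probe, and it stood opposite in sign to Hspa1a and Hspb1. Hsf1 is known to be controlled largely after translation, and its protein was not measured.

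**Figure D2:**
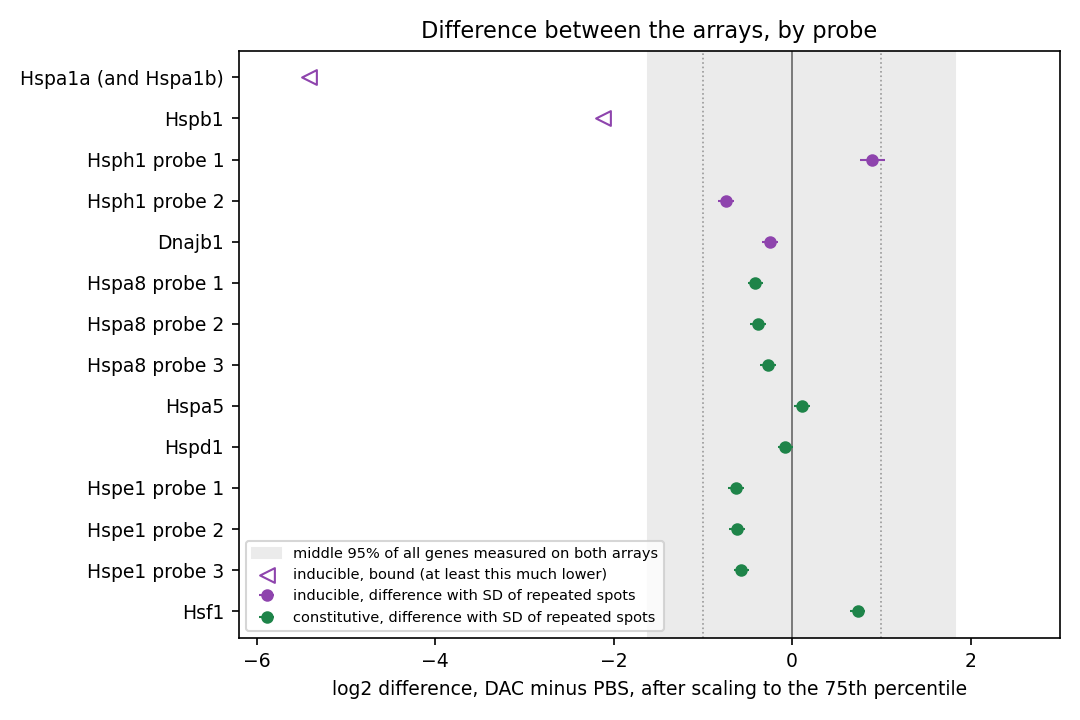
Scaled log2 difference, DAC minus PBS, for each member probe. Filled symbols carry the SD from repeated spots, open triangles are bounds for probes well above background on the PBS array only, dotted lines mark 2-fold, and the grey band holds the middle 95% of genes measured on both arrays (−1.62 to 1.83). Only Hspa1a and Hspb1 fall outside the band, and the 2 probes of Hsph1 lie on opposite sides of 0.

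Of the 9 members with a probe, 2 were at least 2-fold lower with DAC (Hspa1a and Hspb1), 0 passed 2-fold in the other direction and 7 lay within it. Over the 22470 genes above background on 1 or both arrays, 7.9% were lower by that measure and 13.7% higher. The same 2 members were the ones above background on the PBS array only, as were 4.35% of all genes. Since the members were chosen with these differences known, nothing is read from the shares. At 1.5-fold the count was 3, with Hsph1 the added gene by its brighter probe.

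The inducible members had a median log2 difference of −1.43 (4 genes, of which 2 entered at their bound) and the constitutive ones −0.07 (5 genes), a distance of −1.36. Over the genes measured on both arrays the inducible median was −0.49, from Hsph1 and Dnajb1 alone, and the distance fell to −0.42. With the second brightest probe of Hsph1 in place of its brightest, that inducible median turned to 0.33. All 18211 genes measured on both arrays had a median of 0.02. The distance between the sets was therefore carried mostly by Hspa1a and Hspb1.

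**Figure D3:**
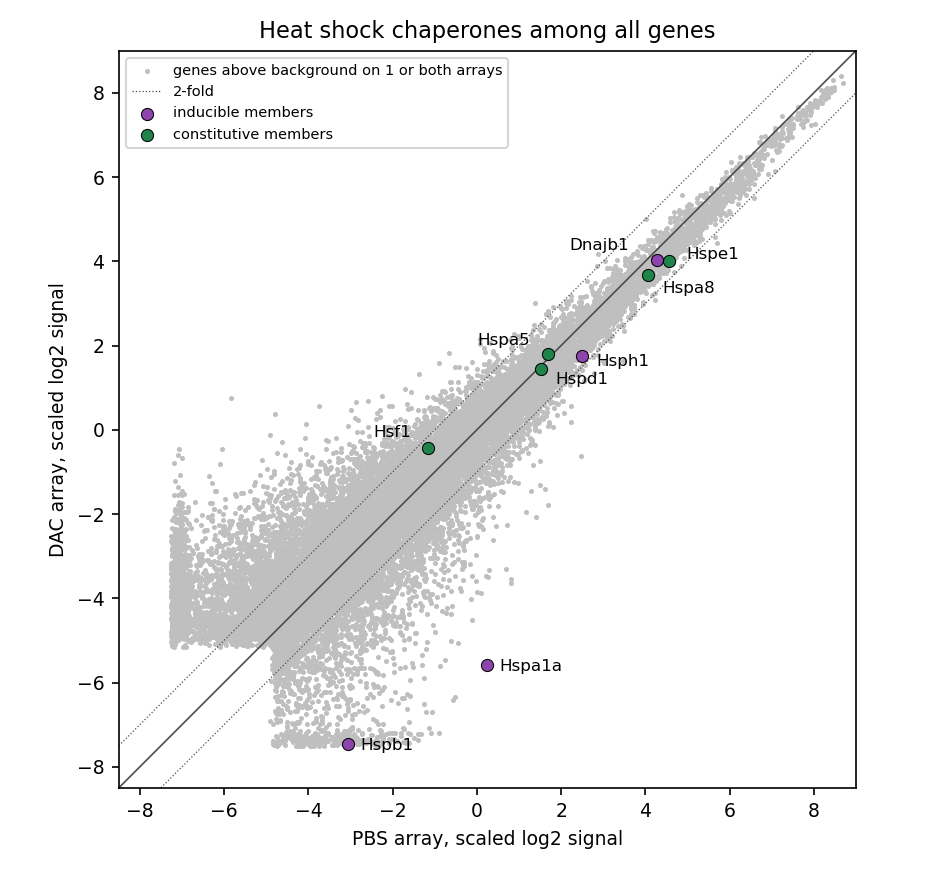
Scaled log2 signal of each gene on the PBS array (x axis) and the DAC array (y axis), for the 22470 genes above background on 1 or both arrays in grey, with the members in colour. The solid line marks equal signal and the dotted lines 2-fold. Hspa1a (0.23 with PBS, −5.58 with DAC) and Hspb1 lie below the 2-fold line, and the other members lie between the lines; signals not above background are plotted as measured.

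The sizes depended on the treatment of background and scaling, and the place of Hspa1a and Hspb1 beyond 2-fold did not. Across 11 alternatives Hspa1a ranged from 12.3- to 56.2-fold lower and Hspb1 from 2.16- to 21.2-fold lower, and both stayed past 2-fold in all 11. Not all of these could have brought them inside 2-fold. Both genes have 1 probe, so changing the probe repeated the reported value. Loosening the filter on dim probes could only enlarge the difference. The largest values came from the loosened filter and are differences at face value, not bounds. For Hspb1 that value rests on a surrogate intensity. The smallest values came without background subtraction. Dnajb1 (−0.45 to −0.02), Hspa8 (−0.58 to −0.18), Hspe1 (−0.77 to −0.35) and Hsf1 (0.53 to 0.73) kept their sign in all 11. The sign of Hsph1 turned in 2 of them, those that use its other probe, and that of Hspa5 turned in 3 and that of Hspd1 in 2, all by scaling. No direction is thus given for Hspa5 or Hspd1. The bright members Dnajb1, Hspa8 and Hspe1 came closest to 0, at −0.02 to −0.35, with loess or quantile normalization.

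**Figure D4:**
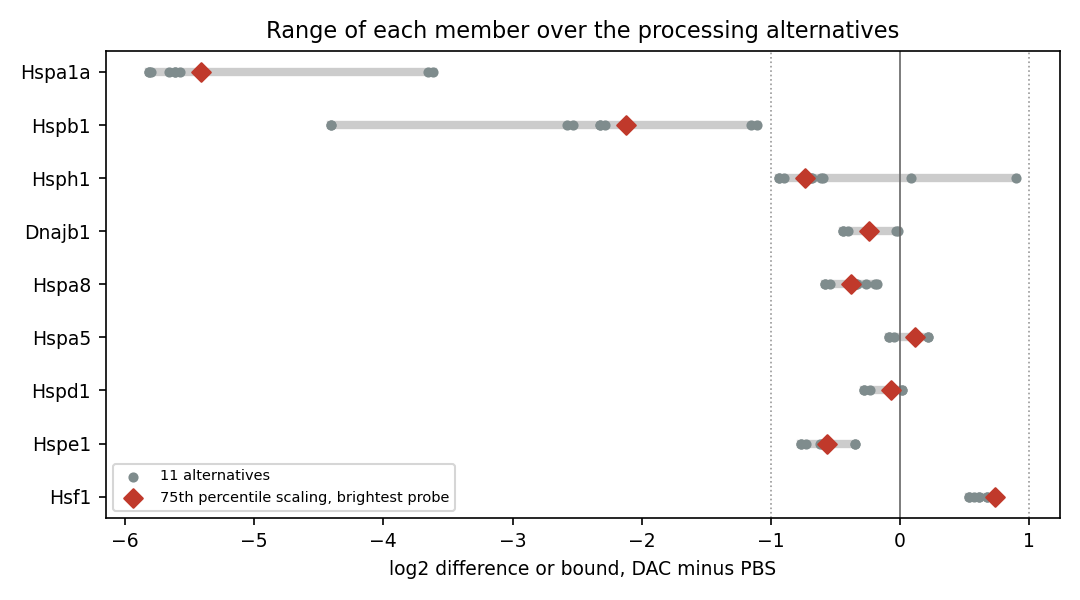
Log2 difference or bound, DAC minus PBS, of each member with a probe (diamond, 75th percentile scaling and brightest probe) and under the 11 processing alternatives (grey dots, joined by a bar from lowest to highest). Dotted lines mark 2-fold. Every dot of Hspa1a and Hspb1 lies below −1, and the bar of Hsph1 crosses 0 because its probes differ.

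The wider set of heat shock factors and their regulators did not move as one. Of 13 such genes 8 were measured on both arrays, with a median of −0.22, and 1 was at least 2-fold lower, Hspbp1 (−1.17), which encodes an exchange factor for Hsp70. A further 2 were above background with DAC alone. These were Hsf2, another heat shock factor, at least 5.96-fold higher, and Bag3, an Hsp70 co-chaperone of selective autophagy, at least 5.59-fold higher. Bag3 is itself a known Hsf1 target, and on these arrays it ran opposite to Hspa1a. Each rested on 1 probe, and at their lowest over the alternatives both were under 2-fold, at 0.92 for Hsf2 and 0.99 for Bag3 on the log2 scale.

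Other stress-inducible genes of the Hsf1 programme numbered 29, and 24 were measured on both arrays, with a median of −0.11. None of the 24 was at least 2-fold lower. Sqstm1, the autophagy receptor p62, was 2.02-fold higher by its brightest probe and lower (−1.22) by its other. Some further members were picked out after their values were seen. Hsp90aa1, the inducible Hsp90, differed by −0.34, its ATPase activator Ahsa1 by −0.89 and the Hsp70-Hsp90 adaptor Stip1 by −0.59. The small heat shock protein gene Cryab differed by −0.70 and the Hsp90 co-chaperone Chordc1 by 0.60. All of these lay within 2-fold, and no other gene of this list had a difference or bound as large as that of Hspa1a.

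In the remaining Hsp70 and Hsp110 family 8 of 10 genes were measured on both arrays, with a median of −0.35. Hyou1, the Hsp110 of the endoplasmic reticulum, was 11.1-fold higher with DAC (3.48, and 2.16 at its lowest over the alternatives). Hspa12b was lower (−1.33) by its brightest probe. Its other probe was above background with DAC alone and was higher, with a bound of 0.82. Hspa1l, whose probe is printed above, was above background with DAC alone, by at least 1.70-fold, while the Hspa1a probe was low there. Among 9 other small heat shock protein genes 4 were measured on both arrays and 3 on neither. Hspb3 was at least 2.24-fold lower with DAC, and Hspb11 was lower (−1.16) by its brightest probe and higher (0.87) by the other.

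The Hsp40 genes, which deliver clients to Hsp70, included 42 beside Dnajb1, of which 30 were measured on both arrays. Past 2-fold, 5 were higher and 3 lower, with a median of 0.07 that changed sign under 3 alternatives. Dnajc27 was the lowest (−2.89). Dnajb5 was high by its brightest probe (2.35). Its other probe was above background on the PBS array only and was low, with a bound of −1.24. Dnajc13 and Dnajc18 were at least 4.31- and 3.27-fold higher, though only 0.75 and 0.46 on the log2 scale at their lowest over the alternatives. The Hsp90 genes and co-chaperones had a median of −0.26 over 20 measured genes of 21, with 2 at least 2-fold higher (Ttc4 at 1.81 and Cdc37l1 at 1.47) and 0 lower. The Hsp70 exchange factors and co-chaperones had 12 of 14 measured on both arrays, a median of −0.19, and 3 higher, with Hyou1 joined by Bag6 (1.38) and Sil1 (1.19), against 1 lower.

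The cytosolic chaperonin TRiC, with prefoldin, was level: all 16 genes were measured and 0 passed 2-fold in either direction, with a median of −0.12. Genes of the endoplasmic reticulum and its unfolded protein response, 27 of 28 measured, had 4 at least 2-fold higher and 1 lower. Besides Hyou1 the higher ones included the stress sensor Ern1 (2.79, but 0.07 at its lowest) and Sel1l (2.27), a part of the degradation complex, while Creld2, a secreted stress-induced protein, was lower (−1.24). The list's median of 0.13 changed sign under 3 alternatives. Hspa5, which the list leaves out as a member, stood at 0.11. Of 15 mitochondrial chaperones and proteases, the disaggregase Clpb was lower (−1.73) and the protease subunit Afg3l2 2.82-fold higher, with a median of 0.09 that also changed sign under 3. These list counts are over genes measured on both arrays. On the basis of the 7.9% and 13.7% over all genes, with bounds included, the Hsp40 list had 3 lower and 7 higher of 37 genes. The endoplasmic reticulum list had 1 lower and 4 higher of 28. In the same way the Hsp90 list had 0 lower and 2 higher of 20, and the exchange factors 1 and 4 of 14. The mitochondrial list had 1 lower and 1 higher of 15. Heat shock factors and regulators had 1 lower and 2 higher of 10, and the other stress-inducible genes 0 and 2 of 28. The other Hsp70 and Hsp110 genes had 1 lower and 1 higher of 9, and the other small heat shock protein genes 2 and 0 of 6. Several genes named in these lists were under 2-fold at their smallest over the alternatives, on the log2 scale Cdc37l1 at 0.69, Bag6 at 0.49, Sil1 at 0.98, Afg3l2 at 0.97 and Hspb3 at −0.59.

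**Figure D5:**
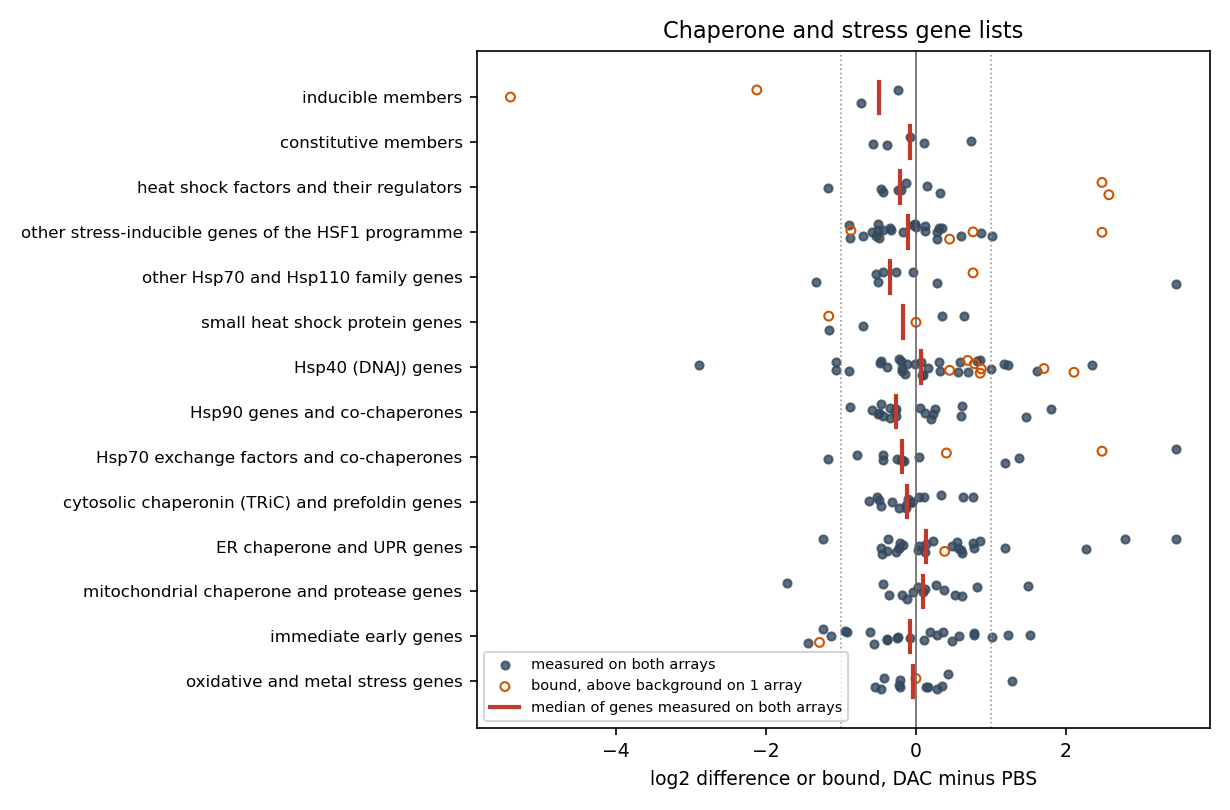
Log2 difference, DAC minus PBS, of the genes in 14 chaperone and stress lists. Filled dots were measured on both arrays, open dots are bounds for genes above background on 1 array, red bars are medians of the filled dots and dotted lines mark 2-fold. The list medians lie between −0.49 and 0.13, and single genes spread from the bound of Hspa1a (−5.41) through Dnajc27 (−2.89) and Hspb1 (−2.12) to Hyou1 (3.48).

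Handling during tissue dissociation and sorting is known to induce both heat shock and immediate early genes, so the latter are given beside Hspa1a. Of 24 immediate early genes 23 were measured on both arrays, 3 of them past 2-fold upward and 3 downward, with a median of −0.08. With bounds included 4 of 24 were lower and 3 higher, against 7.9% and 13.7% of all genes. Ier2 was higher (1.52), while Klf2 (−1.44) and Klf4 (−1.24) were lower and Egr2 was at least 2.44-fold lower. The summed scaled signal of the list was 102 with DAC and 125 with PBS. Outside the naming rule and after the values were seen, Fos (−0.39) and Jun (−0.55) were looked up, and the same list holds Nr4a1 (1.23) and Egr1 (1.02) on the higher side. Egr2 was under 2-fold at its smallest over the alternatives (−0.65). The part of handling in the Hspa1a difference was not tested. Oxidative and metal stress genes, 12 of 14 measured, had 1 gene past 2-fold, the metallothionein Mt1 (1.28, and 0.72 at its lowest over the alternatives). With bounds included that list had 0 lower and 1 higher of 13.

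As for the arrays themselves, the share of probes well above background was 56.8% with DAC and 48.5% with PBS, and 0 spots were saturated. The LSK markers Ly6a (Sca-1) and Kit were measured on both, with differences of 0.07 and 0.12 that turn negative under some scalings, and 10 of 11 stem and progenitor genes were measured. Mature myeloid markers, 8 of 10 measured on both arrays, summed to 61.2 with DAC and 85.3 with PBS. Most of that sum was the brightest Itgam probe (scaled log2 5.64 with DAC and 6.19 with PBS). The 2 other Itgam probes were higher with DAC, by up to 1.58. Erythroid markers, 6 of 9, summed to 3.89 and 3.78. B cell markers, 7 of 8, summed to 16.5 and 14.0, T and NK cell markers, 3 of 9, to 8.35 and 8.45, megakaryocyte markers, 5 of 6, to 2.73 and 1.86, and endothelial and stromal ones, 6 of 10, to 1.98 and 1.64. These sums take in every listed marker on the array, including those not well above background. Most of the T and NK sum was Nkg7 (scaled log2 2.88 with DAC and 2.92 with PBS). Some markers were above background on the PBS array only, as Hspa1a and Hspb1 were. Among T and NK cell genes those were Cd3d, at least 4.51-fold lower with DAC, and Ncr1, at least 1.74-fold lower. Among endothelial and stromal genes they were Fabp4, at least 5.70-fold lower, and Col3a1, at least 2.46-fold lower. Of the 8 endothelial and stromal genes above background on 1 or both arrays, 4 were past 2-fold lower, against 7.9% of all genes. Besides Fabp4 and Col3a1 these were Cxcl12 (−1.42) and Fn1 (−1.03). A further 2 were higher, Pecam1 (2.95) and Emcn (1.56), against 13.7% of all genes. At their smallest over the alternatives Col3a1 (−0.69), Cxcl12 (−0.68), Fn1 (−0.69) and Emcn (0.43) were under 2-fold. Cdh5 and Col1a1 were not well above background on either array. The part of other cell types in the Hspa1a and Hspb1 values was not tested. Genes at least 2-fold higher outnumbered those lower, 3080 to 1775, but by other scalings this became 2149 to 2678 with quantile normalization, 2359 to 2444 with loess, 2378 to 2501 with a percentile over all probes, 2379 to 2495 with the deposited series matrix and 2528 to 2322 with median centring, and normexp gave 941 to 989. These scalings shift the median of all genes by −0.20 (all-probe percentile and series matrix), −0.16 (median centring) and −0.11 (quantile). The first 3 shift every probe alike, members included, whereas quantile normalization moved Dnajb1 (−0.24 to −0.02), Hspa8 (−0.38 to −0.20), Hspe1 (−0.57 to −0.35) and Hspa5 (0.11 to 0.22) upward.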

How the data were processed

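Total RNA of sorted LSK cells was amplified, labelled with Cy3 and hybridised to 1 Agilent array per group, per the labels' protocols. The deposited scanner files give, per spot, the intensity that Agilent Feature Extraction 10.7.3.1 (protocol GE1_107_Sep09, probe positions on mm9, per the file headers) had background-subtracted, with surrogate values for spots not above background. The deposited series matrix holds log2 values whose columns have a median of 0 each. Set against log2 of the processed intensity, their differences had a slope of 1 and an offset of −0.60. This settles scale and direction, while the centring of each probe stays unknown, so the matrix served as an alternative for differences only.

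Of 55681 non-control probes 55680 were kept, and 1 non-uniform one was dropped. Log2 intensity was scaled by each array's 75th percentile, taken over the 25404 probes (45.6%) that passed the call of well above background on both arrays, the preset choice where fewer than 50% do. The call needed at least 50% of a probe's spots, and the brightest probe stood for a gene. Names came from the files and a RefSeq table of GRCm38.p6, through the accession for 26761 probes, a symbol for 3819 and a synonym for 639, with 24461 keeping the file's name. Promoter windows were from RefSeq, and 2 members had no entry (Hspa8 and Hsf1).

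No test was possible with 1 array in each group, and the number of arrays limits precision. The members and lists were chosen with earlier results of these data known. The rule named all members with every probe, up to 4 genes per list among those at least 2-fold apart, and the 5 genes nearest to Hspa1a over both arrays. Alternatives covered background correction (normexp with offset 50 in limma 3.58.1, or none), scaling, the filter on dim probes and the probe chosen. The steps were tested on simulated data. Python 3.11.15 and R 4.3.3 were used.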

Additional observations from a re-analysis of the deposited data

How the results depend on the processing

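The distance between inducible and constitutive medians with bounds included (−1.36) kept its direction in all 11 alternatives. It was −0.86 with normexp, −0.85 with no background subtraction, −1.58 with quantile normalization, −1.61 with loess, −2.50 both with no filter and with the positive and significant call, and −1.11 both with the mean over probes and with the second brightest probe. All-probe percentile, median centring and the series matrix left it as it was, since they shift all genes alike. The median of all members (−0.38) also kept its direction. It moved to −0.58 with the all-probe percentile and with the series matrix, −0.54 with median centring, −0.20 with quantile normalization, −0.18 with loess, and −0.24 both with the mean over probes and with the second brightest probe. The count of members at least 2-fold lower was 2 in every one of the 11 and at 4-fold, and 3 at 1.5-fold. Of 99 values of single members, 49 stayed within the spot SD of the reported value and 50 moved further. Some of the 49 could not have moved. A change of probe cannot alter the 6 members with 1 probe, and a looser filter cannot alter the 7 measured on both arrays. The Hspb1 value without the filter, and that with the positive and significant call, rest on a surrogate intensity. A signal near background limits what can be said of the size of the Hspb1 difference. No paired analysis was possible because each group has only 1 array. No array could be left out for the same reason.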

Other observations

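Genes whose signals were most like those of Hspa1a were sought among the 976 others that were well above background on the PBS array only, by Euclidean distance over the scaled log2 signals of the 2 arrays. Of the nearest 5, the array names 2 as genes. Gpt2, a mitochondrial alanine aminotransferase, came first at a distance of 0.86, with a bound of 24.5-fold lower. Pla1a, a phospholipase that acts on phosphatidylserine, lay at 1.07, with a bound of 25.1-fold. The other 3 probes carry no gene name, and their bounds were between 19.6- and 21.3-fold. All of these fell short of the 42.5-fold bound of Hspa1a.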
